A study of Drosophila melanogaster with 2 samples.

Results

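The genes described here encode Hsp83, the fly Hsp90 chaperone, and proteins of the Hsp70, Hsp60 and J-domain classes: DnaJ-1, Hsp68, Hsp60A, Hsc70-1, Hsc70-2, Hsc70-3, Hsc70-4 and Hsc70-5. These 9 genes, of 13945 protein-coding genes on the 6 main chromosome arms, were taken by symbol, and a peak was given to a gene when its summit lay inside the gene or within 1 kb of it. DnaJ-1 and Hsp68 were counted as the 2 inducible members and the other 7 as constitutive. The data are ChIP-seq peaks of CG12769, a protein whose function the labels do not give, in whole fruit fly (Drosophila melanogaster) embryos of pooled sexes, 10 to 24 h old. The embryos came from a transgenic line that stably expresses CG12769 with green fluorescent protein (GFP) at its C-terminus, and the chromatin was pulled down with an antibody against GFP. All embryos belonged to 1 group, with 2 biological replicates numbered 5 and 7, no treatment and no untagged group analysed here. Neither the promoter that drives the tagged protein nor the level of the untagged protein is given in the labels. Peaks of whole embryos do not show in which cells CG12769 was bound, and no transcript was measured.

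Hsp90 and Hsp70 proteins bind and release unfolded or unstable proteins in cycles driven by ATP, and J-domain proteins such as DnaJ-1 deliver substrates to Hsp70 and start its ATP hydrolysis. Cognate Hsc70 genes are transcribed in unstressed cells, whereas Hsp68 is a classical heat shock gene that is nearly silent until heat shock factor (HSF) binds inverted repeats of GAA, the heat shock elements, in its promoter. Hsp83 has both properties: it is expressed at a high level without stress, also in the female germ line, and is raised further by heat. Hsc70-3 is the chaperone of the endoplasmic reticulum, Hsc70-4 the main cytosolic Hsc70, Hsc70-5 the mitochondrial Hsp70, and Hsp60A the mitochondrial chaperonin.

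CG12769-GFP peaks were listed at 6 of the 9 chaperone genes in the set of peaks thresholded by the irreproducible discovery rate (IDR). The sources used here do not say which comparison gave this set. Of its 8574 peaks, 218 were not overlapped in both replicate lists, among them the only one of Hsc70-4. Both inducible members, DnaJ-1 and Hsp68, had an IDR peak, with 3 summits between them. Of the constitutive members, 4 of 7 had one (Hsp83, Hsc70-3, Hsc70-4 and Hsc70-5), with 9 summits. Among all protein-coding genes, 31.8% had an IDR summit in reach by the same rule. Among the protein-coding genes no longer than the longest member, Hsc70-3 with 5422 bp, the share was 23.3%. With 2 genes in one class and 7 in the other, and no replicate of a gene, the classes are described side by side without a test.

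The DNA under the summits is shown for 3 members, because their peaks at the promoter differ in which known promoter words they hold. Sequences are from the Release 6 reference of RefSeq, on the strand of the gene, 5′ to 3′, with dm6 coordinates. Capitals mark matches to the words named with each sequence, on either strand. The heat shock element was searched as a pair of units (GAANNTTC or TTCNNGAA) and as 3 units (the same with a further GAA or TTC in turn after 2 bases, which contains the shorter form). At DnaJ-1, chr3L:5752160-5752326 on the minus strand, capitals mark the 2-unit heat shock element, TATAAA and the DRE word TATCGATA, at which the factor DREF is known to bind. At Hsp68, chr3R:24057339-24057539 on the minus strand, they mark 2-unit heat shock elements, which overlap in the first run. At Hsp83, chr3L:3193138-3193165 on the plus strand, only the stretch beside the summit is shown, with 1 exact 2-unit element. All searches were for exact matches, so units that miss by 1 base are neither marked nor counted. The stretch at Hsp83 holds such units on both sides of its element.
DnaJ-1 promoter summit: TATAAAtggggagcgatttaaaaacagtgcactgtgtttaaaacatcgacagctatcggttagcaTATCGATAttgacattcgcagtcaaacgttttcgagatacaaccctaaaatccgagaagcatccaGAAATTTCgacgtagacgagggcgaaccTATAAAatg
Hsp68 promoter summit: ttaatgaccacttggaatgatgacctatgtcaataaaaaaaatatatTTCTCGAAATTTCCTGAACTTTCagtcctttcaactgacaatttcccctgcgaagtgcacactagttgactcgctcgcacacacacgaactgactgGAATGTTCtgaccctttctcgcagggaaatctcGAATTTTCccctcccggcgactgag
Hsp83 promoter summit: gaagcctctaGAAGTTTCtagagacttc

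For DnaJ-1, the IDR summit lay 37 bp upstream of the only annotated start site, the TATCGATA began 35 bp upstream of the summit and ended 28 bp upstream of it, and the heat shock element covered the bases from 7 bp upstream of the start to the start itself. At Hsp68, the run of overlapping elements reached from 182 to 160 bp upstream of the start, and the summit lay between this run and an element that reached from 86 to 79 bp upstream. At Hsp83, the element covered the bases 11 to 18 bp downstream of the summit, which put it 68 to 61 bp upstream of the start of the shorter transcript, and a TATAAA stood 30 to 25 bp upstream of that start. Within windows that reach 100 bp to each side of the summit, 3 of the 12 IDR summits of the chaperone genes held a 2-unit heat shock element, in promoter windows of Hsp83, DnaJ-1 and Hsp68, and 9.45% of all IDR windows did. The 3-unit form was found at 1 of the 12, that of Hsp68, and in 0.35% of all IDR windows. These matches describe the letters of the windows and do not show that HSF or DREF was bound there.

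A peak is also shown for what its window lacks: the intron peak of Hsp83 is the second strongest of the 12 IDR summits, and none of the words searched was found within 100 bp of the summit. It lies at chr3L:3194184-3194384 on the plus strand and has no capitals. The intron peak of Hsc70-4, chr3R:15243547-15243747 on the plus strand, likewise held none of them. The window at the inner promoter of Hsc70-3, chrX:11805335-11805494 on the minus strand, has in capitals a run of overlapping GAGAG matches, the word known to be bound by the GAGA factor, read here as CTCTC. The strongest summit of Hsp68, chr3R:24058125-24058286 on the minus strand, has in capitals a pair of TATCGAT words, the core of the DRE.
Hsp83 intron summit: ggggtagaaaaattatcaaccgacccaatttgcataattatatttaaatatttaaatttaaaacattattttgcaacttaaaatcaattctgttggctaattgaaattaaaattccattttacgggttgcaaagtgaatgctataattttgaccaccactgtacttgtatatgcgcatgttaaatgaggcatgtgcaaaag
Hsc70-4 intron summit: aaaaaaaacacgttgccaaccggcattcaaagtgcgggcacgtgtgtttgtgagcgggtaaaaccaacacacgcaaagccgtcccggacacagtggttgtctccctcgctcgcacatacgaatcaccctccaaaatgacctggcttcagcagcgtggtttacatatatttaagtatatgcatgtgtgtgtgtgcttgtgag
Hsc70-3 inner promoter summit: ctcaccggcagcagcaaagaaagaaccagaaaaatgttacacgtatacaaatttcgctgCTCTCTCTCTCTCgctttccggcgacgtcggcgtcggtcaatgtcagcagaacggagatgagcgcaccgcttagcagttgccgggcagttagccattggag
Hsp68 upstream summit: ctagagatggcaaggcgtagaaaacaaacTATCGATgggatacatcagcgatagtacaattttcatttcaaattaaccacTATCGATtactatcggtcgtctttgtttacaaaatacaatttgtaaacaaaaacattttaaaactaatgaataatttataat

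GAGAG stood in the windows of 2 of the 12 IDR summits of the chaperone genes, both of Hsc70-3, and in 32.4% of all IDR windows. TATAAA stood in 6 of the 12 and in 20.6% of all, a count that depended on the width of the window: within 50 bp of the summit it stood in 1 of the 12 and in 11.8% of all, and within 200 bp in 10 of the 12 and in 36.4% of all. TATCGATA stood in 1, that of DnaJ-1, and in 1.89% of all, and the shorter TATCGAT in 2, those of DnaJ-1 and of Hsp68 upstream, and in 4.5% of all. TATCGATA contains TATCGAT, so the DnaJ-1 window counts for both. The shorter word was added to the search after the windows had been seen.

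Hsp83 (FBgn0001233, chr3L:3192969-3197059, plus strand) had the strongest peak of the 9 genes. The authors' value for it, a number from the peak caller with no stated scale, was 984.1 in the IDR set, where it had rank 542 of 8574. In the list of replicate 5 the peak had a value of 322.1 and stood in the top 3.12% of 30000 peaks, and in the list of replicate 7 it had a value of 663.1 and stood in the top 1.34% of 30000 peaks. Values of different lists are not on a shared scale, so ranks are the better guide between lists. Its summit lay 79 bp upstream of the start of the shorter transcript and 168 bp downstream of the 5′-most start, inside the 5′ UTR of the longer transcript. CG14965 lies within 1 kb as well and is given the same peak. Of the 4440 genes with an IDR peak, 630 (14.2%) had a stronger strongest peak than Hsp83.

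The other IDR summits at Hsp83 lay in the intron and past the end of the gene. The intron summit, 1068 bp downstream of the nearest start, had a value of 747.1 and rank 885 in the IDR set, rank 1651 in replicate 5 and rank 678 in replicate 7. The summit 648 bp past the gene's end had a value of 268.1 and rank 4812, with rank 5934 in replicate 5 and rank 4629 in replicate 7. The start nearest to it, at 76 bp, is that of CG14966, so this peak lies at a neighbour's promoter, with CG32276 also in reach. A further pooled summit in the 3′ UTR had a value of 43.1 and rank 28880 of 30000, near the bottom of that list, and overlapped a peak of replicate 7 only.

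DnaJ-1 (FBgn0263106, chr3L:5750029-5752189, minus strand), a J-domain cochaperone of Hsp70, had the strongest peak of the inducible members. Its value was 595.1 in the IDR set, with rank 1360. Replicate 5 listed it with a value of 218.2 at rank 1900, and replicate 7 with a value of 410.3 at rank 990. The 2 replicates placed the summit 63 bp apart, on both sides of the start, at 40 bp upstream in replicate 5 and 23 bp downstream in replicate 7. A weaker pooled summit, with a value of 132.6 and rank 11255, lay 848 bp upstream of DnaJ-1 and 64 bp from the start of Usp47, which also has the promoter peak in reach. A summit 501 bp downstream of the start was listed in replicate 5 only, with a value of 77.6 and rank 8399.

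Hsp68 (FBgn0001230, chr3R:24055080-24057310, minus strand), an inducible Hsp70, had 2 IDR summits, and the weaker one was at its own promoter. That summit lay 129 bp upstream of the start and had a value of 194.1 and rank 7328, with a value of 68.8 and rank 9676 in replicate 5 and a value of 122.3 and rank 6979 in replicate 7. The stronger summit lay 915 bp upstream of Hsp68 and 62 bp from the start of SMC1, a cohesin subunit gene. It had a value of 301.1 and rank 4038, with rank 6707 in replicate 5 and rank 3195 in replicate 7. A pooled summit past the end of the gene, beside CG6000 and lncRNA:CR44097, had a value of 43.0 and rank 28911.

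**Figure D1:**
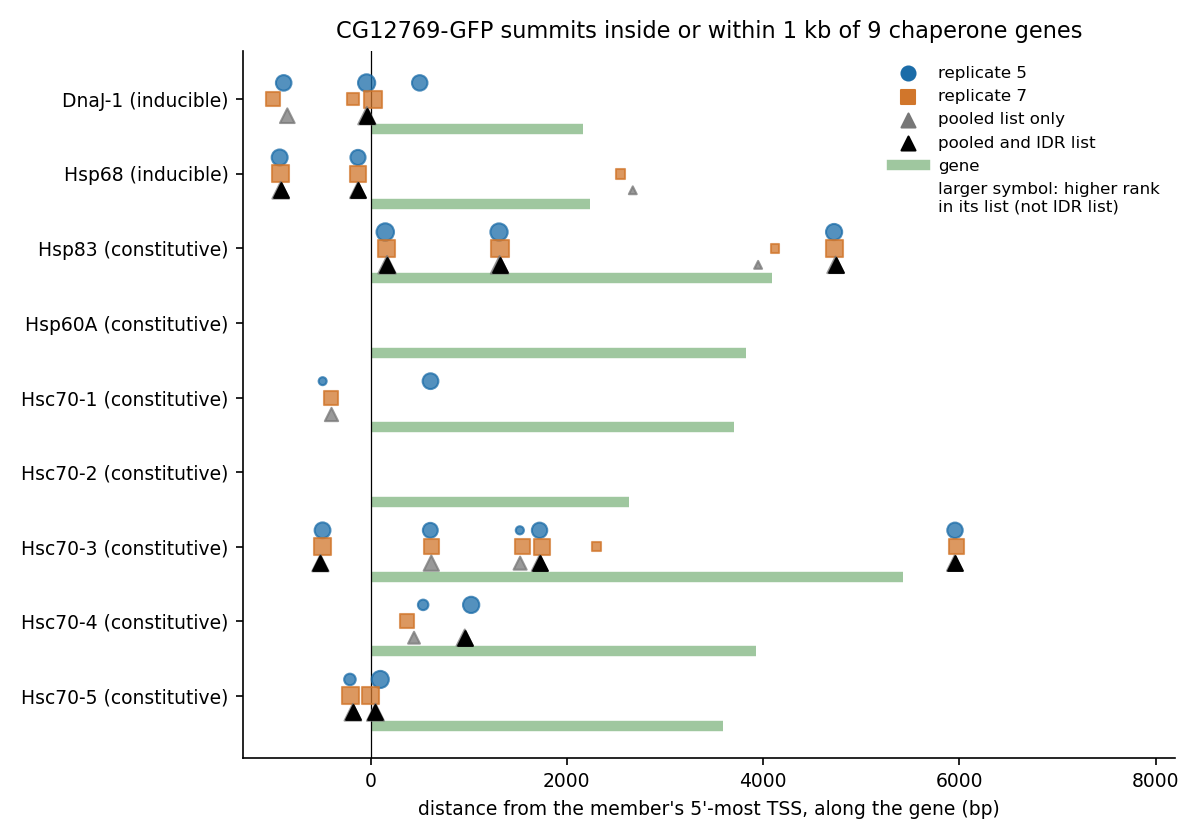
Summits in the 4 lists by distance from the 5′-most start of each gene (horizontal axis, bp along the gene); green bars are the genes, symbols the lists, and larger circles, squares and grey triangles rank higher in their list. Hsp60A and Hsc70-2 have no symbol, and the IDR summits of DnaJ-1 and Hsp68 lie upstream of the start.

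The Hsc70 genes with an IDR peak differed in where it lay. Hsc70-3 (FBgn0001218, chrX:11801696-11807117, minus strand) has 4 annotated starts and had 3 IDR summits. The strongest lay 511 bp upstream of the 5′-most start, with CG1578 also in reach, and had a value of 258.5 and rank 5056, rank 7248 in replicate 5 and rank 4289 in replicate 7. The summit 30 bp upstream of an inner start had a value of 190.7 and rank 7476, rank 8847 in replicate 5 and rank 7190 in replicate 7. The one 531 bp past the end, in reach of CkIIbeta, had a value of 172.7 and rank 8405, rank 8565 in replicate 5 and rank 9369 in replicate 7. All 3 lay below the set's median value of 288.9. Pooled summits 145 and 229 bp upstream of inner starts, with values of 158.8 and 88.9, did not enter the IDR set.

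Hsc70-4 (FBgn0266599, chr3R:15242687-15246614, plus strand), with 6 annotated starts, had a single IDR summit in an intron, 449 bp downstream of the nearest start. It had a value of 257.9 and rank 5081. Replicate 5 listed an overlapping peak with a value of 108.9 and rank 5510, and replicate 7 listed none there. The only peak of replicate 7 at the gene had its summit 95 bp upstream of a start, with a value of 54.2 and rank 16449, and overlapped a weak pooled peak with a value of 70.7 and rank 19835, in reach of tefu. Among the 8574 IDR peaks, 218 (2.54%) were likewise not overlapped in both replicate lists. The peak of Hsc70-4 therefore rests on replicate 5 and the pooled list. With only the IDR peaks overlapped in both replicate lists, 5 of the 9 chaperone genes had one, against 30.7% of all protein-coding genes, with 2 of 2 inducible and 3 of 7 constitutive members.

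Hsc70-5 (FBgn0001220, chr2R:14252598-14256192, minus strand) shares its peak with CG8531, a J-domain gene on the other side. The authors listed 1 interval, chr2R:14256010-14256469, with 2 summits. The summit 50 bp downstream of the Hsc70-5 start had a value of 384.6 and rank 2761, with rank 2278 in replicate 5 and rank 1967 in replicate 7. The other, 180 bp upstream of Hsc70-5 and 121 bp from the start of CG8531, had a value of 302.5 and rank 4012, with rank 20624 in replicate 5 and rank 2527 in replicate 7. The replicates thus ranked the summit inside Hsc70-5 alike and the one toward CG8531 far apart.

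Hsc70-1, Hsc70-2 and Hsp60A had no IDR summit in reach. For Hsc70-1 (FBgn0001216, chr3L:13974061-13977761, plus strand) the pooled list held a summit 407 bp upstream with a value of 92.8 and rank 15783, nearer to the start of CG13738, at 177 bp, than to its own, with ssp2 and Nxf3 also in reach. Replicate 7 placed the same peak at rank 10541 and replicate 5 at rank 28688. Replicate 5 alone also listed a peak 219 bp downstream of an inner start of Hsc70-1, with a value of 85.7 and rank 7467. The nearest IDR summit to Hsc70-1 lay 25185 bp away, in upSET.

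For Hsp60A (FBgn0015245, chrX:11108482-11112308, plus strand) the nearest IDR summit was 37169 bp away, in Lint-1, and the nearest pooled summit 20966 bp away. For Hsc70-2 (FBgn0001217, chr3R:13044759-13047388, plus strand) the nearest IDR summit was 26707 bp away, in CtBP. The summit nearest to Hsc70-2 in any list came from replicate 5, at 3998 bp in CG7966, with rank 11273. A gene without a listed peak may still be bound below the threshold of a list, and since the depth of the libraries is unknown no limit can be set on such binding.

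In the longer lists 7 of the 9 genes had a summit in reach. The pooled list held 19 summits at 7 members, against a share of 46.4% of all protein-coding genes with one. Replicate 5 held 19 summits at 7 members, against 49.3% of all, and replicate 7 held 20 summits at 7 members, against 46.2% of all. In each of the 3 lists these were the 6 genes of the IDR set and Hsc70-1. Both inducible members and 5 of the 7 constitutive ones had a summit in each. Hsp83 and Hsc70-3 each had 3 IDR summits in reach, and 1.66% of protein-coding genes no longer than Hsc70-3 had 3 or more. For Hsp83, the summits include the one nearest to the start of CG14966.

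The strongest peaks of the 6 genes spread widely among those of all genes. The median strongest value over the 4440 genes was 399.7, and only Hsp83 and DnaJ-1 lay above it. A stronger peak than that of DnaJ-1 was listed at 30.3% of these genes, than that of Hsp68 at 67.0%, than that of Hsc70-5 at 52.5%, than that of Hsc70-3 at 76.0% and than that of Hsc70-4 at 76.4%. The inducible pair thus held the second and the fourth place among the 6, and the constitutive genes the first, the third, the fifth and the sixth. The first place of the constitutive genes is that of Hsp83, which is also raised by heat. With Hsp83 counted as inducible instead, 3 of 3 inducible and 3 of 6 constitutive genes had an IDR peak. The place of Hsp68 rests on the summit of 301.1 beside the SMC1 start; by the summit at its own promoter, 194.1, Hsp68 would stand last. Hsc70-3 and Hsc70-4 differed by less than 1 unit of the authors' value, which carries no error, so their order is not distinguishable.

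**Figure D2:**
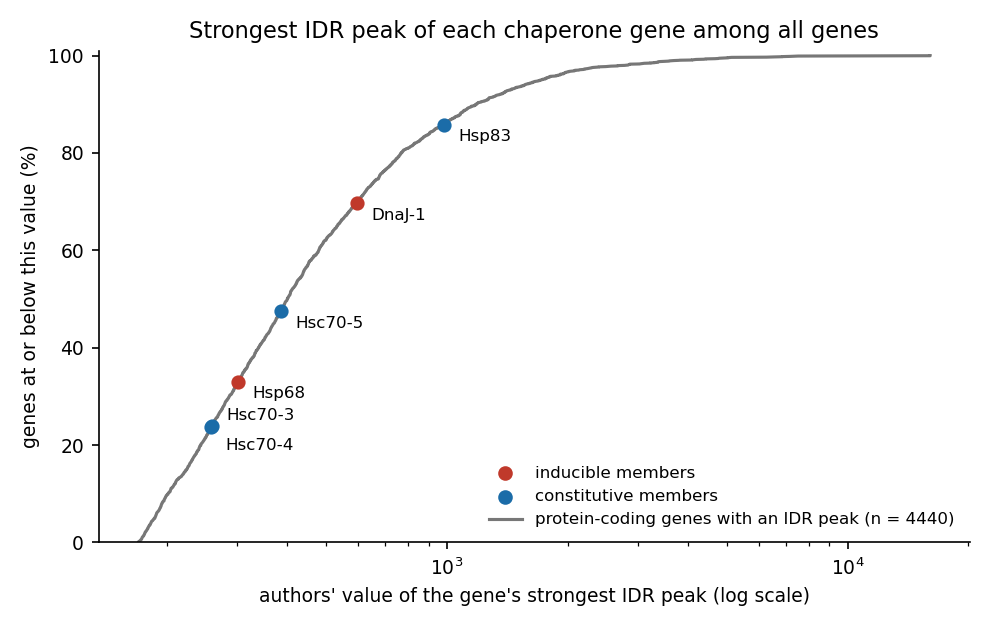
Cumulative share (vertical axis, %) of the 4440 protein-coding genes with an IDR peak by the authors' value of their strongest one (horizontal log axis, scale not stated). Points are the inducible and constitutive chaperone genes: Hsp83 and DnaJ-1 lie above the median of 399.7 and the other 4 below it, with Hsp68 placed by its summit of 301.1 beside the SMC1 start.

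The genes with the most similar strongest value to Hsp83 were AsnS (985.9), RpL30 (985.3) and Hipk (984.5) above it, and CG14965 (984.1, the same peak), ps (981.2) and mtd (978.2) below it. AsnS is known as asparagine synthetase and RpL30 as a ribosomal protein. Relative to the nearest start of the gene, upstream negative, their summits lay between −646 bp, at CG14965, and 1190 bp, at Hipk, and the one closest to a start was that of RpL30, at −27 bp. The likeness is that of 1 value per gene and says nothing else of these genes.

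Of the 12 IDR summits of the chaperone genes, 9 were nearer to a start of the gene itself than to that of any other gene, and 7 lay within 500 bp of an own start. The 3 others were nearest to the starts of CG14966, SMC1 and CG8531. Taking 1 strongest summit per gene, 4 of the 6 chaperone genes had it within 500 bp of an own start (Hsp83, DnaJ-1, Hsc70-4 and Hsc70-5), and 49.5% of all genes with an IDR peak did. The exceptions were Hsp68, at 915 bp, and Hsc70-3, at 511 bp upstream. The median position over the 6 was 58 bp upstream, and over all such genes 1 bp upstream. By class, the strongest summits of the inducible genes lay 915 and 37 bp upstream, and those of the constitutive genes between 511 bp upstream, at Hsc70-3, and 449 bp downstream, at Hsc70-4.

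Most IDR summits of the chaperone genes with a peak in both replicate lists ranked higher in replicate 7 than in replicate 5. This held for 10 of the 11 such summits, where 51.7% of all such IDR peaks (8356) ranked higher in replicate 7. The rank in replicate 5 divided by that in replicate 7 had a median of 1.69 over the 11 and ranged between 0.914 and 8.16. The median over all such peaks was 1.03. The exception was the peak past the end of Hsc70-3, with rank 8565 in replicate 5 and 9369 in replicate 7. All 3 inducible summits and 7 of the 8 constitutive ones stood on the same side. The IDR summit of Hsc70-4, at rank 5510 in replicate 5 and with no peak in replicate 7, is not among the 11. Outside the IDR set, the weaker peak of DnaJ-1 near the Usp47 start had rank 8171 in replicate 5 and rank 12232 in replicate 7. The other pooled peaks outside the set with a peak in both replicates ranked higher in replicate 7. Their ranks in replicates 5 and 7 were 28688 and 10541 at Hsc70-1, and 23307 and 16449 at Hsc70-4. At Hsc70-3 they were 10521 and 8796 for one peak, and 28436 and 11796 for another. The summits share genes, and with 2 replicates no test of this was made.

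**Figure D3:**
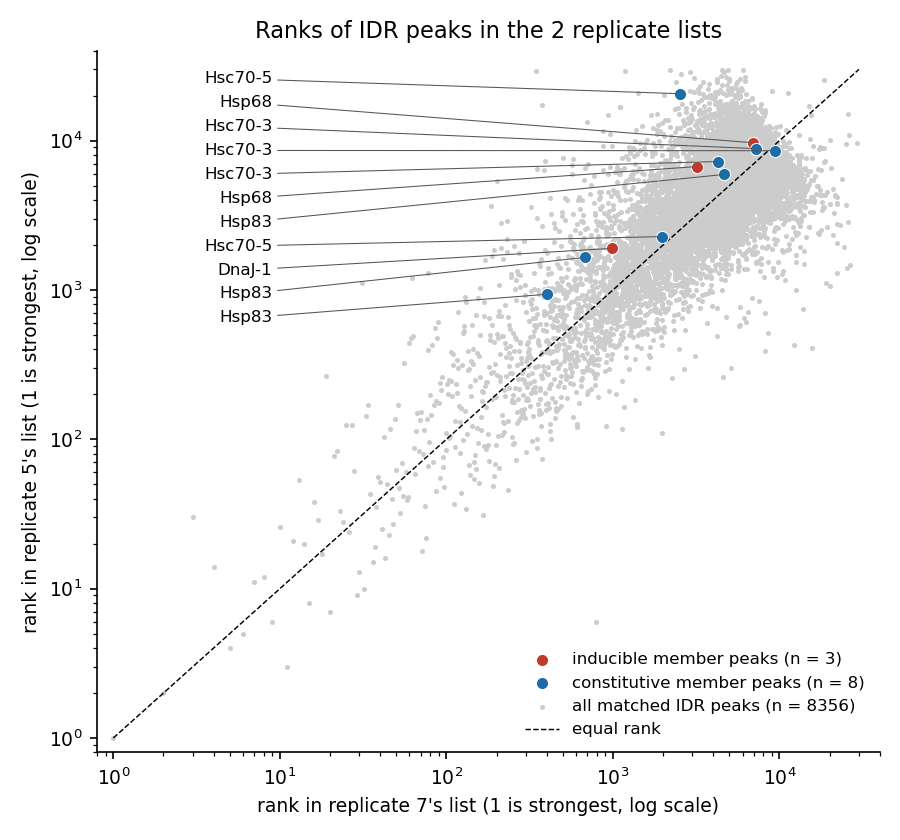
Rank of each IDR peak in the list of replicate 5 (vertical log axis) against its rank in the list of replicate 7 (horizontal log axis); rank 1 is the strongest, grey points are all 8356 peaks found in both lists, and lines lead to the names of the 11 chaperone summits. Of those 11, 10 lie above the line of equal rank, on the side where replicate 7 ranks higher.

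The replicates placed the summits of the chaperone genes close together, with a median gap of 10 bp over the 11 and a largest gap of 97 bp, at Hsc70-5. The median gap over all IDR peaks found in both was 25 bp. Of the 19 summits that replicate 5 listed at these genes, 16 belonged to peaks that overlapped a peak of replicate 7 by at least 1 bp, and 77.3% of all its peaks did. Of the 20 summits of replicate 7, 17 overlapped a peak of replicate 5, and 80.7% of all its peaks did. The 3 of replicate 5 without a partner were the summits inside DnaJ-1, Hsc70-1 and Hsc70-4, of which that of Hsc70-4 ranked highest, at 5510. The 3 of replicate 7 without one, past the ends of Hsp83 and Hsp68 and in an intron of Hsc70-3, had ranks between 24763 and 28327.

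The annotated promoters, taken as 250 bp before to 50 bp after each start, were searched for the same words whether or not they had a peak. The 2-unit element was found in a promoter of 7 of the 9 genes, all but Hsc70-1 and Hsc70-5, and in 15.9% of the 19253 promoters of protein-coding genes. Genes with several starts have several promoters, so these shares are per gene for the members and per promoter for the rest. Counted per gene, 20.0% of the 13945 had it. The 3-unit element was found at Hsp68 and at Hsc70-4, 205 to 193 bp upstream of an inner start of Hsc70-4, and in 0.421% of promoters or 0.567% of genes. Hsp60A and Hsc70-2 each had a promoter with the 2-unit element and no peak in any list. TATCGATA was found in promoters of DnaJ-1 and Hsp83 and in 7.98% of all promoters. Counted per gene, the shorter TATCGAT was found at 5 of the 9 and at 20.2% of all. TATAAA was found at 8 of the 9 and at 51.3% of all, and GAGAG at 4 of the 9 and at 36.4% of all.

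The windows of Hsp83 and Hsc70-3 shared the longest run of bases of any 2 pooled windows of different members, and it is shown for that reason, with its word TGATCTAC in capitals. The 15 bp of the run occur at 2 places on the 6 arms, both at these genes. The median longest run over the 149 pairs of windows was 8 bp, and the next longest runs, of 14 bp, were found in 2 pairs. At Hsp83 the word begins 122 bp upstream of the start of the shorter transcript, in chr3L:3193083-3193112 on the plus strand, and 43 bp upstream of the strongest summit. At Hsc70-3 it begins 102 bp upstream of an inner start, in chrX:11806437-11806466 on the minus strand, under a pooled peak with a value of 158.8 that did not enter the IDR set. The word was chosen after its occurrence had been seen.
Hsp83 word: tatcacaacacTGATCTACcctagtattca
Hsc70-3 word: ctttccaacacTGATCTACcactgacgtgt

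TGATCTAC was found in promoters of 3 of the 9 genes, Hsp83, Hsc70-1 and Hsc70-3, and in those of 66 of all 13945 protein-coding genes (0.473%). The word was taken from the run shared by Hsp83 and Hsc70-3, so its presence at these genes was fixed by that choice. Hsc70-1 was the only other member with it, and the counts are not a measure of enrichment. At Hsc70-1 it began 139 bp upstream of the 5′-most start. Of the 66 genes with the word, 24 (36.4%) had an IDR peak in reach, near the 31.8% of all protein-coding genes. Among the 66 genes of the wider chaperone lists, p23, an Hsp90 cochaperone, had it, and p23 had no peak in any list.

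The wider chaperone lists were read by the same rule, and 29 of their 66 genes (43.9%) had an IDR summit in reach, against the 31.8% of all protein-coding genes given above. The J-domain proteins, which work with Hsp70, stood at 13 of 17. Their highest values were at Tpr2 (1291.7), mrj (1219.4) and CG5504 (1150.6), all above that of Hsp83, and mrj, a gene of 18465 bp, had 9 IDR summits in reach. The peak given to CG5504 was nearest to the start of Alg3. The strongest peaks of DnaJ-60, Sec63, CG7130 and CG8531 were also nearest to other genes' starts, those of spag, pst, RpLP0 and Hsc70-5. That of CG8531 is the peak of Hsc70-5 already counted among the chaperone genes above. That of DnaJ-60 is counted again for spag in the list of Hsp90 cochaperones. Csp and wus had no IDR peak. The genes listed as small heat shock proteins, by name and not by protein sequence, stood at 8 of 12. They did so at 6 distinct summits, since neighbours shared peaks. Hsp22, CG4456 (listed as Hsp67Bb) and Hsp67Bc had the same peak of 566.0, nearest to the start of Hsp67Bc. Hsp27 (879.4) and CG14207 (567.6) stood highest in that list, and Hsp23 and CG4461 had no IDR peak.

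The Hsp90 paralogs and cochaperones stood at 4 of 11 (36.4%), near the 31.8% of all protein-coding genes. Sgt had a value of 791.1, Stip1, which links Hsp70 to Hsp90, had 525.3 with the summit nearest to the start of Pi3K21B, and spag had 278.7. Trap1, the mitochondrial Hsp90, and Gp93, that of the endoplasmic reticulum, had none. The cofactors of Hsp70 and its relative Hsp110 stood at 2 of 7: stv, a BAG-domain cochaperone, had 5 IDR summits with a highest value of 583.1, and Sil1 had 226.7. Hsp110, also named Hsc70Cb, and STUB1 had none. The chaperonins besides Hsp60A stood at 2 of 12, CG11267, the fly Hsp10, at 563.4 and CCT1 at 171.7. Hsp60B and Hsp60C had none. Hsf, the gene of HSF itself, had no summit in any list.

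The 6 copies of heat-inducible Hsp70 (Hsp70Aa, Hsp70Ab, Hsp70Ba, Hsp70Bb, Hsp70Bbb and Hsp70Bc) had no summit in any of the 4 lists, although all of them have 3-unit heat shock elements in their promoters. They are near-identical copies, and the sources used here do not say how reads that map to several places were treated, so this 0 of 6 cannot be told apart from reads that were not counted. For that reason the 0 of 6 is not set against the 2 of 2 of Hsp68 and DnaJ-1.

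**Figure D4:**
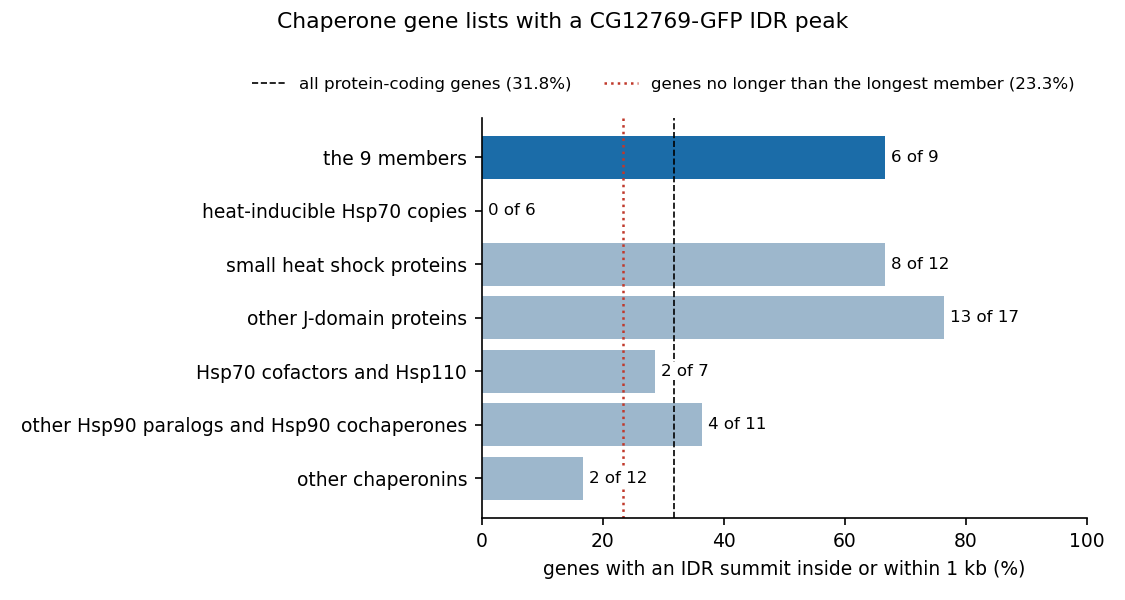
Share of the genes of each chaperone list with an IDR summit inside or within 1 kb (horizontal axis, %), with the counts beside the bars; the dashed line is the share of all protein-coding genes (31.8%) and the dotted line that of genes no longer than Hsc70-3 (23.3%). The 9 genes and the lists of J-domain proteins and small heat shock proteins lie above both lines. The Hsp90 paralogs and cochaperones (36.4%) and the Hsp70 cofactors and Hsp110 (28.6%) lie near the dashed line, the former above it and the latter below. The chaperonins and the Hsp70 copies lie below both lines, and for the copies this cannot be told apart from reads that were not counted.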

How the data were processed

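The deposited files are 4 narrowPeak lists on dm6, per the labels: 1 for each of replicates 5 and 7, 1 for the pooled replicates and the IDR set. Per the notes deposited with them, they derive from the alignments and 1 other file whose nature is left unsaid. The sources used here do not give the aligner, peak caller, IDR threshold or treatment of repeated sequence. The fragments ranged between 200 and 800 bp, per the labels. The authors' signal value of each peak is on no stated scale and was used to describe and rank the peaks of each list. The −log10 q-value deposited by the authors tied at its highest for 5466 IDR peaks and was not used for ranking. The deposited summit offset gave each summit position. The values of the IDR peaks are those of the pooled list. Each replicate list and the pooled list stops at 30000 peaks, so their lower ends depend on that number. The deposited signal values held no read counts, so depth is unknown and no interval or floor is given.

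Coordinates are 1-based. Gene positions came from Ensembl release 115 (BDGP6.54, the sequence of dm6), and sequences from RefSeq. Wider lists were matched by symbol (62 names), synonym (2) or hand (2, Hop as Stip1 and l(2)tid as CG5504). Peaks and genes were joined with Python 3.11.15, pandas 2.3.3 and NumPy 2.4.6, and the joins were tested on simulated data. A peak pair matched at 1 bp of overlap. No test was made: there is 1 group of 2 replicates. The 9 genes, the lists and the motifs were chosen with earlier results of these data known. The genes named are all 9 members, up to 3 of each wider list with the highest IDR value and up to 2 without an IDR peak, genes that share a member's peak, and the 3 nearest above and below Hsp83 in value. Counts over the wider lists name further genes chosen after their values were seen (Hsf, p23, the Hsp70 copies and the J-domain genes with a strongest peak nearest to another gene's start).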

Additional observations from a re-analysis of the deposited data

How the results depend on the processing

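No paired analysis was possible because all samples belong to 1 group and no test was made. Of the alternatives, 37 values of the main results stayed within the limits set (a factor of 1.5 for counts, the spread between replicates for positions, the exact 95% binomial interval for the share over all genes) and 11 moved, and of the other results 39 stayed and 10 moved; none changed sign. Chaperone genes with an IDR peak stood at 2 of 9 among the 2143 strongest IDR peaks, where 13.8% of all protein-coding genes had one. The inducible genes stood at 1 of 2 among those and at 0 of 2 where the summit had to lie inside the gene, against 17.8% of all. The constitutive genes stood at 1 of 7 among the 2143 strongest, near the share of all genes, and at 2 of 7 among the 4287 strongest, against 22.2% of all. The share over all protein-coding genes, 31.8%, was 23.3% among genes no longer than the longest member and 29.6% among all 18164 genes. The median position of the strongest summit, 79 bp upstream in the pooled list (−79, 7 genes), was −58 in the IDR set, −37 from the 5′-most start, and between −97 and −95 in single replicates. Ranking by −log10 p was not run, because the deposited column holds −1 throughout. In windows that reach 200 bp to each side, 7 of 12 summits held the 2-unit heat shock element, against 17.4% of all IDR windows, and 2 the 3-unit one, against 0.583%. GAGAG stood in 4 of 12 at that width, against 52.2% of all. The words TATCGAT and TGATCTAC and the count of IDR peaks overlapped in both replicates were chosen after seeing the data. Depth is unknown, so absence from a list sets no limit on binding.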
